A study of Mus musculus with 10 samples.

Results

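Gene deserts are long stretches of chromosome without protein-coding genes, and the regions described here are the narrow CUT&RUN regions that lie in them. A region counted as a member when it was 300 bp or narrower, lay outside every protein-coding RefSeq gene span and more than 200 kb from either end of each, and sat on an autosome outside the first 5 Mb of each chromosome and outside 3 to 60 Mb of chromosome 4. The rule took 13124 of the 151133 regions in the data, and no measured value entered it. The 13124 made up 9.55% of the 137431 narrow regions in the sequence considered, and the other 124307 are called the rest. Desert sequence came to 437.3 Mb in 693 stretches, 18.9% of the 2310 Mb considered.

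All samples were RN2 cells, a C57BL/6 mouse leukaemia line that carries the MLL-AF9 fusion and the NRAS mutation NRASG12D, transduced with a retrovirus for murine IKZF2 and the marker RFP, sorted, and kept in culture for 2 weeks. CUT&RUN, in which an antibody tethers a nuclease (pA-MNase) to its target in permeabilised cells, was run with an antibody against IKZF2 in 3 libraries, each with technical replicate 2 and technical replicate 1. The 4 samples with a control antibody were not analysed here, and a region's signal could not be set against the level without the IKZF2 antibody, and every comparison lies within the IKZF2 libraries. IKZF2 was overexpressed in all of them, RN2 is a single line, and whether the 3 libraries stem from separate cultures is not stated. P-values thus measure only the spread between these libraries, which may be technical. In the test between libraries they measure only the spread between technical replicates of a library.

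IKZF2, also called Helios, belongs to the Ikaros family of zinc-finger proteins, whose members bind DNA at sites with a GGGA core and recruit the NuRD chromatin remodelling complex. Gene deserts hold no protein-coding genes, but some contain enhancers that act over long distances on genes at their edges, such as the blood enhancers of Myc. Much desert DNA lies in closed, late-replicating chromatin, and the genes beside deserts are often developmental regulators or neuronal adhesion genes.

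Base sequence was held for only a small set of members, those that overlap a RefSeq promoter window (GRCm38.p6, from 250 bases before to 50 after a transcription start), all of them windows of long non-coding RNAs. The deserts held 977 such windows of 838 genes, 0.274 Mb in all. Of the members 17 overlapped one and 13 had their centre in one, a density of 47.4 centres per Mb that rests on few regions, against 30.0 per Mb in deserts as a whole. The 17 are the members that overlap such a window, the smallest overlap being 3 bases, and need not cover the start itself. Of the 17, 9 lay wholly inside a window. The 6 of these 9 with the highest signal are printed here 5′ to 3′ on the gene's strand, with the letters GGGAA or their reverse complement TTCCC in capitals, because these letters contain the GGGA core. Region ends are as deposited, and since the files do not say whether starts count from 0 or 1, each stretch may be off by 1 base at an edge.
Gm40930, chr13:44504436-44504655, + strand: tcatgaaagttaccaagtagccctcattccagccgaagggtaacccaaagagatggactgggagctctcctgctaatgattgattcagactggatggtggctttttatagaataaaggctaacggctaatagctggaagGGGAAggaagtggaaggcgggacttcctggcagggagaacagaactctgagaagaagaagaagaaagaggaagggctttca
Gm30779, chr6:26766966-26767058, - strand: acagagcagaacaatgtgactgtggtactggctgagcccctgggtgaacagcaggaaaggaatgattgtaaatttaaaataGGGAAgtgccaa
Gm36794, chr5:111946650-111946742, - strand: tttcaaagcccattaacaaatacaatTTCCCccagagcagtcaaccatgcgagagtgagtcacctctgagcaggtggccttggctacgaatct
Gm13985, chr2:117812767-117812868, - strand: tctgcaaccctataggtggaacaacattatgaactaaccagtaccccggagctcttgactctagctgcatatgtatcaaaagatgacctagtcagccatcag
Gm30905, chr9:90704942-90705045, - strand: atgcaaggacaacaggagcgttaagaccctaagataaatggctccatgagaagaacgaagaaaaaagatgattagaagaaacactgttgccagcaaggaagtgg
Gm40662, chr13:7076299-7076415, - strand: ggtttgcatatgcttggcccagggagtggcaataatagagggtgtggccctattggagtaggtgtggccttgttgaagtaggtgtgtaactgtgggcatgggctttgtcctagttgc
The first 3 of these hold the letters and the other 3 do not, and 3 of all 9 hold them. The shorter GGGA core on its own was not searched for or marked, and it also occurs unmarked, as in the Gm40662 stretch. Stretches of 115 bases, the median length of the 9, taken from the start of every promoter window held them in 31.9% of all windows and in 30.2% of desert windows, so the members' share is close to that of promoter sequence of the same length. Over whole windows, 13 of the 19 overlapped by a member held the letters (68.4%), against 62.8% of desert windows and 62.7% of all windows. A match of letters is a description and not a binding site.

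Signal is given in CPM per kb, a region's reads per 1000000 reads in all regions of that library, divided by the region's width, after the technical replicates of a library were summed. The region in the Gm40930 window had 65.4, 78.5 and 39.5 CPM per kb in libraries 1 to 3, and that in the Gm30779 window had 58.4, 62.3 and 52.2. The 3 libraries lay close together at Gm30779, whereas library 3 was low at Gm40930. At Gm30905 library 2 stood at 92.7 CPM per kb, against 23.2 in library 1 and 42.0 in library 3. The 17 members at promoter windows had a median of 50.8 CPM per kb and ran from 36.9 to 93.8. The highest of them overlapped the window of Gm26901 and had 115, 96.2 and 70.1 CPM per kb in libraries 1 to 3, with 53 of its bases inside the window. No member overlapped any of the 45 miRNA hairpins in the deserts, and the nearest lay 53 bp from Mir344f.

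IKZF2 CUT&RUN regions were sparse in the deserts. The deserts held 30.0 narrow regions per Mb, against 66.4 per Mb in the rest, a ratio of 0.452. The ratio was below 1 on 19 of 19 autosomes, from 0.382 on chromosome 11 to 0.543 on chromosome 9. Within deserts the density ran from 27.0 regions per Mb on chromosome 5 to 35.8 on chromosome 13. Gaps in the genome assembly were not subtracted from either length, since no genome sequence was used.

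Outside gene spans, density fell with distance from the nearest protein-coding gene, and went on falling inside the deserts. It was 69.1 regions per Mb inside gene spans, 77.5 within 10 kb of a gene, 66.4 from 10 to 50 kb, 56.3 from 50 to 100 kb and 48.5 from 100 to 200 kb. Past the 200 kb limit it was 35.5 per Mb up to 500 kb, 24.6 from 500 kb to 1 Mb and 20.0 beyond 1 Mb, where 1274 regions lay in 63.8 Mb. The limit itself thus cuts a continuous slope. The 2 members nearest to it inside lay 200006 and 200013 bp from a gene, with 41.4 and 47.8 CPM per kb, and the 2 nearest outside lay at 199997 and 199985 bp, with 35.2 and 47.3.

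**Figure D1:**
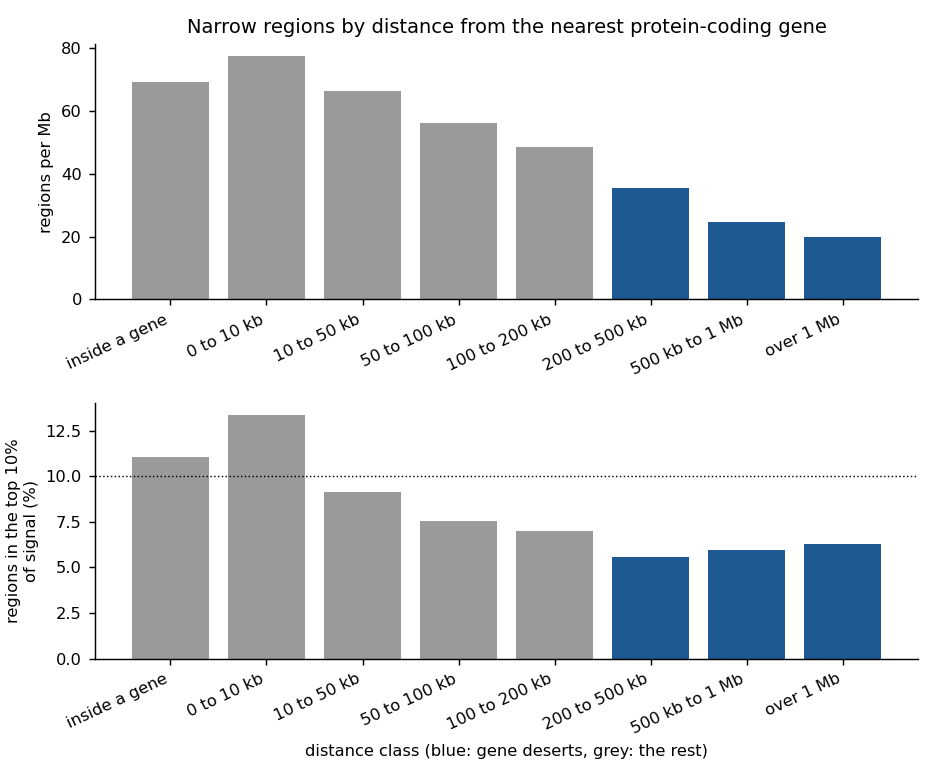
Narrow regions per Mb of sequence (top) and the percentage of regions in the top 10% of signal (bottom) by distance from the nearest protein-coding gene, with gene deserts in blue, the rest in grey and the dotted line at 10%. Density is highest within 10 kb of a gene (77.5 per Mb) and lowest beyond 1 Mb (20.0 per Mb), while the share of strong regions stays between 5.56% and 6.28% in the 3 desert classes.

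Counted in reads, the gap between deserts and the rest was slightly wider and was found in each library. Desert regions held 178.0, 164.9 and 174.9 RPM (reads per 1000000 reads in all regions) per Mb of sequence in libraries 1 to 3, against 425.4, 428.0 and 427.3 in the rest. The groups did not overlap, and library 2 was the lowest in the deserts and the highest in the rest. The log2 ratio averaged -1.31 ± 0.062 (SD, n = 3), with a two-sided exact paired sign-flip permutation p = 0.25, the smallest that 3 libraries allow. All libraries were counted over the same region set, so the ratio of region density (0.452) enters each library's value. The like result in each library is therefore largely built in and is not separate support.

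Per kb of width, desert regions carried slightly less signal than regions elsewhere. Desert regions averaged 51.4, 47.7 and 50.4 CPM per kb in libraries 1 to 3, against 51.7, 51.7 and 51.9 in the rest. They were lower in each library, but the log2 difference of -0.06 ± 0.055 (SD, n = 3) was about as large as its own spread, and the exact sign-flip permutation p was 0.25, again the smallest possible. In technical replicate 1 alone the difference turned to 0.02 ± 0.038. Without division by width it was larger, -0.16 ± 0.062, with each library between -0.23 and -0.11 (exact sign-flip permutation p = 0.25). By median over regions of the 3-library mean, deserts stood at 48.6 and the rest at 49.4 CPM per kb.

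Deserts also differed from the rest at the upper end of signal. The 10% of narrow regions with the highest mean, at or above 63.5 CPM per kb, included 751 desert regions (5.72%, 95% Wilson interval 5.34 to 6.13%), against 10.5% of the rest. Ranked within a library, the share was 9.91%, 7.69% and 8.98% of desert regions in libraries 1 to 3, against 10.0%, 10.4% and 10.1% of the rest, so library 1 showed almost no gap and library 2 the widest. Only 17 desert regions (0.130%, interval 0.0809 to 0.207%) were in the top 10% in all 3 libraries, against 776 (0.624%, interval 0.582 to 0.670%) of the rest. The contrast was 5.75% of desert regions against 10.4% of the rest in technical replicate 2 alone, which is several times as deep. In technical replicate 1 alone it was nearly gone, as 9.78% of desert regions and 10.0% of the rest were in the top 10%, and 0.221% of desert regions and 0.180% of the rest were so in all 3 libraries. Intervals cover counting error only.

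Most strong desert regions were strong in a single library, as were most strong regions of the rest. Signal, with 5 CPM per kb added, correlated negatively between libraries in both groups. The correlation was -0.34 to -0.27 over desert regions and -0.27 to -0.20 over the rest. Regions high in a library thus tended to be lower in the others, in deserts and elsewhere. All libraries were counted over the same region set, and the mean over libraries lay in a narrow range. Its quartiles were 43.6 and 54.4 CPM per kb in deserts and 44.1 and 55.8 in the rest. Where the mean is nearly fixed, a high value in a library requires lower values in the others, so the negative sign may be built in. Whether the choice of regions fixed the mean was not tested. Of the 13124, 25.2% were in the top 10% in exactly 1 library, as were 25.2% of the rest, but 0.488% were so in 2 libraries, against 1.73% of the rest. A single library gave more than 50% of the summed signal at 50.2% of desert regions and at 46.5% of the rest. Of desert regions 6.29% had no read in at least 1 library, against 4.38% of the rest.

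Desert regions were also narrower, with a median width of 105 bp against 108 bp, and the shortfall grew with width. At 90 to 99 bp the deserts had 10.8 regions per Mb against 20.1 in the rest, a ratio of 0.540. At 180 to 300 bp they had 2.23 per Mb against 8.04, a ratio of 0.278. In that widest class 0.819% of desert regions were in the top 10% of signal, against 11.3% of the rest, and at 90 to 99 bp the shares were 8.21% and 11.0%. The log2 difference in mean signal was negative in all 5 width classes, from -0.03 ± 0.045 at 90 to 99 bp to -0.19 ± 0.078 at 180 to 300 bp (SD, n = 3). Dividing by width raises narrow regions, so the class values are those to compare. The widest members kept were 300 and 297 bp long, and the narrowest desert regions left out for width were 302 and 303 bp long.

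**Figure D2:**
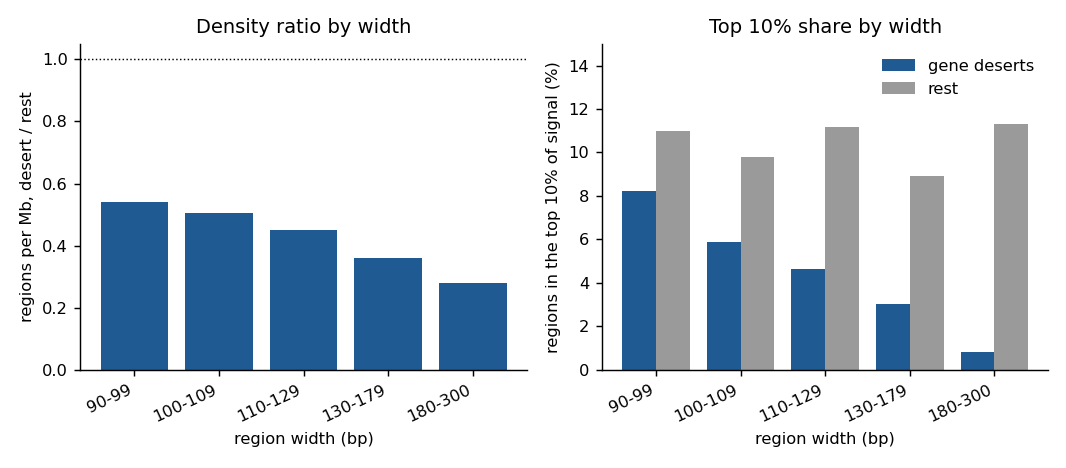
Ratio of region density in gene deserts to that in the rest (left, dotted line at 1) and percentage of regions in the top 10% of signal (right, gene deserts blue, rest grey) in 5 width classes in bp. The ratio falls from 0.540 in the narrowest class to 0.278 in the widest, and the desert share in the top 10% falls from 8.21% to 0.819%.

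The 10 desert regions with the highest mean ran from 138 to 2285 CPM per kb, and the 99th percentile over all desert regions was 74.3. The cut at 10 marks no gap, as a member outside the 10 averaged 136 CPM per kb. The 10 held 0.627% of all desert reads, and the highest alone held 0.259%. The highest lay at chr6:10186388-10186479 between Nxph1, a neurexin ligand, and Ndufa4, a mitochondrial respiratory chain protein, 937 kb from Nxph1. Technical replicate 2 of libraries 1 to 3 gave it 112, 302 and 111 reads, and technical replicate 1 gave it 104, 316 and 100. The read numbers were alike although technical replicate 2 held several times as many reads in all, and library 2 held more of them than the other libraries together. Its mean was 2285 ± 1773 CPM per kb (SD, n = 3), and the next highest desert region averaged 645 ± 123.

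The second lay at chr16:77946898-77947014, 354 kb from Cxadr, the coxsackievirus and adenovirus receptor. Technical replicate 2 of libraries 1 to 3 gave it 3, 3 and 25 reads, and technical replicate 1 gave it 124, 136 and 100. The shallower samples thus held nearly all of its reads, and the groups did not overlap. The third, at chr11:25100084-25100208, lay 927 kb from Bcl11a, a zinc-finger factor that represses fetal globin, where technical replicate 2 gave 31, 114 and 40 reads and technical replicate 1 gave 2, 16 and 8. Here library 2 was the highest in both, and the mean of 337 ± 286 CPM per kb (SD, n = 3) rests largely on it.

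A further 4 of the 10 lay 216 to 445 kb from their nearest genes. The region at chr10:29816018-29816115, 280 kb from the Wnt agonist gene Rspo3, had 234, 197 and 317 CPM per kb in libraries 1 to 3. The region at chr6:117431659-117431760, 250 kb from Cxcl12, the chemokine that retains blood stem cells in marrow, had 142, 151 and 276. Both were high in each library with library 3 the highest. The region at chr16:61056339-61056445 near Epha6, an ephrin receptor, had 124, 336 and 154 CPM per kb, and that at chr2:57587176-57587281 near Gpd2, the mitochondrial glycerol-3-phosphate dehydrogenase, had 91.0, 249 and 73.2. In both, library 2 stood above the other libraries.

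Of the 10, 9 were also among the 17 in the top 10% in all 3 libraries, and Gpd2's was so in 2. The next of the 17 by mean lay at chr18:82168915-82169010, 223 kb from the galanin receptor gene Galr1, with 119, 127 and 162 CPM per kb. At the other end, the member farthest from any protein-coding gene, at chr14:90717532-90717624 between the protocadherin genes Pcdh20 and Pcdh9, lay 2246136 bp from the nearest and had 71.4, 34.6 and 41.8 CPM per kb, near the desert median.

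**Figure D3:**
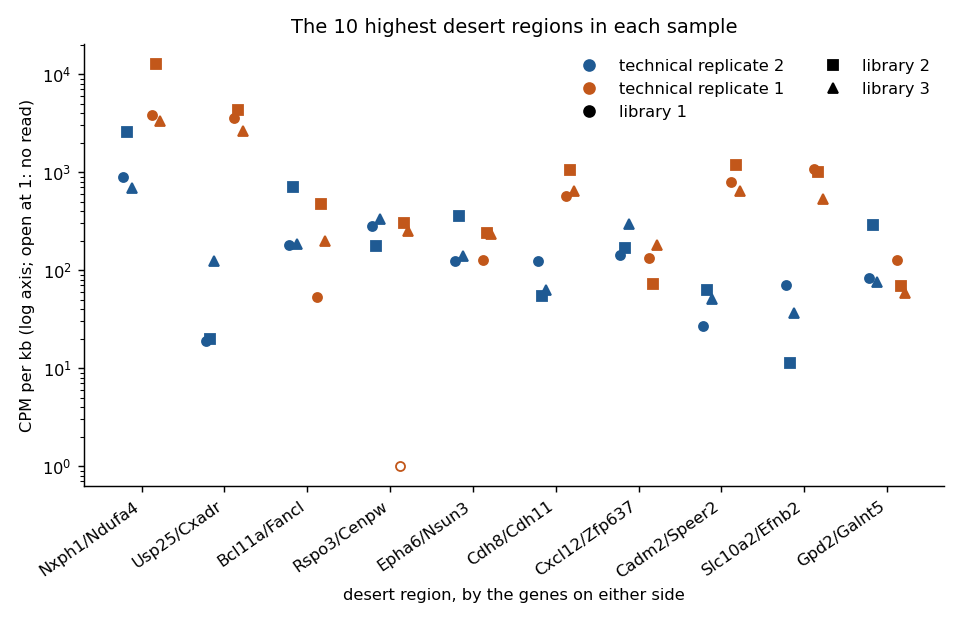
CPM per kb on a log axis for the 10 highest gene desert regions, each named by the genes on its sides, with technical replicate 2 in blue to the left of technical replicate 1 in orange and the symbol giving the library. The regions at Nxph1/Ndufa4, Usp25/Cxadr, Cdh8/Cdh11, Cadm2/Speer2 and Slc10a2/Efnb2 lie lower in technical replicate 2 in each library. An open symbol at 1 marks a sample without a read.

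Technical replicate 2 held 1296355 to 1755015 reads in regions and technical replicate 1 held 273896 to 326440. The median desert region had 8, 6 and 10 reads in libraries 1 to 3 of technical replicate 2, against 2, 1 and 2 for technical replicate 1. Between 1.48 and 5.58% of members had no read in a technical replicate 2 sample, against 36.7 to 44.9% in a technical replicate 1 sample. Desert regions took 7.70, 7.10 and 7.59% of reads in technical replicate 2, against 8.21, 7.75 and 7.95% in technical replicate 1. Each library's share was lower in technical replicate 2, by 0.507 ± 0.146 percentage points (SD, n = 3), with an exact paired sign-flip permutation p = 0.25, the smallest possible. With genes of every kind, not only protein-coding ones, as the limits of deserts the difference was -0.04 percentage points. Those deserts are only part of the ones used here and hold fewer regions and reads. The sizes of these differences in percentage points are therefore not directly comparable. The depth of the samples moved with this difference, and its part was not tested.

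At single regions, 8 desert regions were called between the technical replicates by edgeR (quasi-likelihood test, library as block) at a Benjamini-Hochberg adjusted p under 0.05, and all 8 were lower in technical replicate 2. Over all 27452 regions tested, 0.259% were called, 0.120% lower and 0.138% higher in technical replicate 2. Only 1518 of the 13124 members passed the filter on low counts, and 33 of these had an unadjusted p under 0.05, compared with 1884 of all 27452. The fitted log2 fold had a median of -0.07 over the 1518 desert regions and of 0.41 over all regions tested. With no filter on low counts it was 0.78 over all 13124 desert regions and 0.83 over all 151133 regions, so the gap between the medians nearly closed and the desert median changed sign. With the filter and scaling by total counts the medians were -0.44 and 0.05, 10 desert regions were called, again all lower, and the calls over all regions moved to 9 higher and 46 lower, against 38 and 33.

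Of these 8, 5 were among the 10 highest. At chr16:77946898-77947014 the log2 fold of technical replicate 2 over 1 was -5.49 ± 0.28 (SE), with an edgeR adjusted p of 1.34e-78. DESeq2, another test of counts, gave -6.03 ± 0.94 (SE) with an adjusted p of 1.61e-08, so the size of p depends on the method. At chr8:6771223-6771428, between the bile acid transporter gene Slc10a2 and the ephrin ligand gene Efnb2, technical replicate 2 had 20, 3 and 13 reads and technical replicate 1 had 66, 56 and 36 (log2 fold -3.86 ± 0.36, edgeR adjusted p = 2.72e-22). At chr16:69145220-69145354, between the adhesion gene Cadm2 and Speer2 (712 kb away, the nearer of the pair), technical replicate 2 had 5, 11 and 12 reads and technical replicate 1 had 32, 43 and 28. There the log2 fold was -3.53 ± 0.43 (SE), with an edgeR adjusted p of 5.67e-13. At each of these 3 the groups did not overlap even in raw reads, against the direction of depth.

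At chr8:101880219-101880347, between the cadherin genes Cdh8 and Cdh11, technical replicate 2 had 22, 9 and 14 reads and technical replicate 1 had 22, 37 and 27 (log2 fold -2.59, edgeR adjusted p = 2.57e-06). The highest region, at chr6:10186388-10186479, had a log2 fold of -1.58 ± 0.17, with an edgeR adjusted p of 4.91e-17. Of the other called regions, log2 folds were -3.47 at chr1:112776438-112776547, between Dsel and the neurexin-family gene Cntnap5a, and -2.90 at chr12:6200252-6200456, between Klhl29 and the apolipoprotein gene Apob. At the first of these, technical replicate 2 had 2, 2 and 13 reads, and technical replicate 1 had 21, 10 and 21. Without library 2 no desert region was called, nor any other region of the 20751 then tested. An unadjusted p under 0.05 was found for 30 of the 1132 desert regions tested, compared with 819 of all 20751. Without library 1, 5 of 563 desert regions were called, compared with 18 of all 14407 tested. Without library 3, 3 of 841 desert regions were called, compared with 8 of all 17301.

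Between the 3 libraries, with technical replicate as a term, edgeR called 0.0146% of the 27452 regions (4), and 1 of the 4 was a desert region, chr6:10186388-10186479. Its highest library lay 1.62 above the lowest on the log2 scale (edgeR adjusted p = 5.79e-15). It was not called in 3 other fits. Without library 2 the log2 difference shrank to 0.22. In that fit 83 of 1132 desert regions had an unadjusted p under 0.05, compared with 1122 of all 20751 regions tested. Without library 3 the difference was 1.53, with 61 of 841 desert regions and 956 of all 17301 at that p. Without the technical replicate term it was 1.60, with 128 of 1518 and 1507 of 27452. In the main fit these numbers were 77 of 1518 and 1193 of 27452.

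Deserts differed widely among themselves in how many regions they held. The 135 stretches of at least 1 Mb had between 12.0 and 70.6 regions per Mb with a median of 23.8, and the variance of their counts was 6.86 times the number that one common density would give. The order of the stretches was much the same in each library: Spearman's rho of RPM per Mb between libraries was 0.89 to 0.91 over the 135 stretches, which share the same region set and so the same number of regions. Longer stretches were emptier, with 45.6 regions per Mb in stretches under 0.25 Mb and 22.5 per Mb in those of 2 Mb or more. Of all 693 stretches 42 held no region, the longest of them 66.7 kb.

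The longest desert, 4.14 Mb between Pcdh20 and Pcdh9 on chromosome 14, held 72 regions (17.4 per Mb). The second, between Celf4, an RNA-binding splicing regulator, and Pik3c3, a lipid kinase of autophagy, held 20.2 per Mb, and the third, between Olfm4 and Pcdh17, 18.7. All 3 lay below the median of stretches of 1 Mb or more. The sparsest lay between Pcdh9 and Spertl, with 19 regions in 1.59 Mb (12.0 per Mb), followed by Slitrk5 to Gpc5 (13.0) and Kif2b to Car10 (13.4).

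Of the 135, 2 stretches were denser than the rest's 66.4 regions per Mb. The stretch between Sall3, a spalt-family zinc-finger gene, and Galr1 on chromosome 18 held 71 regions in 1.01 Mb (70.6 per Mb), with 431, 391 and 449 RPM per Mb in libraries 1 to 3. The stretch between Gm36448 and Dad1 on chromosome 14, the T cell receptor alpha and delta locus with 123 annotated receptor segments, held 66.5 regions per Mb, with 403, 391 and 421 RPM per Mb. In both, the libraries lay close together, and the 3-library mean was near the 427 RPM per Mb of the rest. Next came the stretch between the angiotensin receptor gene Agtr1b and the corepressor gene Tbl1xr1, with 52.7 regions per Mb.

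The other 2 stretches with receptor segments, which hold immunoglobulin gene segments, had 45.7 regions per Mb on chromosome 12 and 36.4 on chromosome 6. Receptor segments themselves covered 0.187 Mb of desert and held the centres of 11 members (58.9 per Mb). Without these 3 stretches the ratio of desert to rest density was 0.449.

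**Figure D4:**
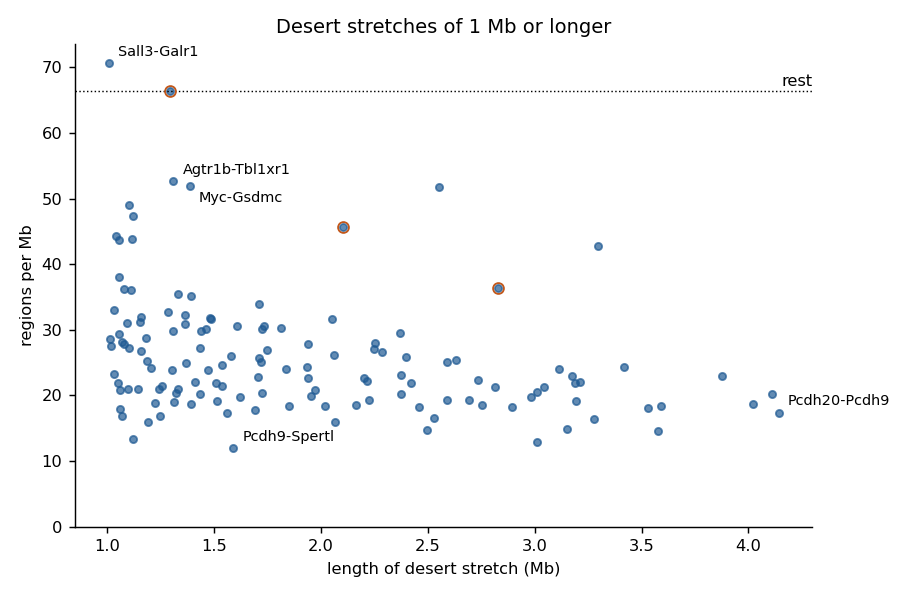
Regions per Mb against length in Mb for the 135 gene desert stretches of 1 Mb or longer, with orange rings on the 3 that hold antigen receptor segments and the dotted line at the density of the rest (66.4 per Mb). Nearly all stretches lie below the line, 2 lie above it, and the longest have about 20 regions per Mb.

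Deserts beside blood regulators were denser than deserts as a whole. Of a list of 30 regulators of blood and leukaemia, 14 flanked a desert, and their 18 stretches held 43.0 regions per Mb, against 30.0 in all deserts. The density lay above 30.0 for 12 of the 14 genes, compared with 671 of all 1223 genes that flank a desert, whose median was 31.8. The 2 below were Gata3 and Ikzf2. Short stretches were denser in general, and the part of length in these values was not tested. The list was chosen with earlier results of these data known, so these numbers are a description only.

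The desert beside Runx1, a transcription factor needed to form blood stem cells, held 38 regions in 0.357 Mb (106 per Mb), with 666 ± 10.9 RPM per Mb (SD, n = 3). All stretches of 0.25 to 0.5 Mb together held 40.4 per Mb. The one beside Zeb2, a zinc-finger repressor of myeloid and lymphoid development, was 3.30 Mb long and held 42.8 per Mb, against 22.5 in all stretches of 2 Mb or more. Those beside Satb1, a chromatin organiser of T cells, held 76.3 per Mb over 0.524 Mb. Bcl6, a repressor of germinal centre B cells, headed the list only through 1 region in 4.48 kb. The desert beside Tcf4, an E protein, held 64.2 per Mb, that beside Id2, an inhibitor of E proteins, 58.0, and those beside Meis1, a homeobox cofactor in MLL-AF9 leukaemia, 51.4.

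The 2 deserts beside Myc held 100 regions in 2.05 Mb (48.8 per Mb). The one between Myc and Gsdmc, on the side of the known blood enhancers, had 72 regions in 1.39 Mb (52.0 per Mb) and 319, 324 and 321 RPM per Mb in libraries 1 to 3, and the one on the other side had 42.2 regions per Mb. By the rule the stretch between Myc and Gsdmc stops 200 kb short of either gene. Whether it holds those enhancers was not checked. At Gata3, a master regulator of T cells, the value was 26.2 per Mb. The stretch beside Ikzf2 was only 22.6 kb long and held no region, which allows up to 133 per Mb, so nothing can be said of its density.

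In signal per region the blood list's deserts lay close to deserts as a whole. Regions beside the blood list had a median of 48.5 CPM per kb, against 48.6 in all deserts, and 6.93% of them were in the top 10%, against 5.72%. The regions beside Runx1 averaged 51.6 ± 2.27 CPM per kb (SD, n = 3) and the strongest reached 72.7, with 5 of the 38 in the top 10%. Beside Myc 8 of 100 regions were in the top 10%. Whether signal moved with density across stretches was not tested. The highest region in the deserts of this list was the one near Bcl11a at 337 CPM per kb, in a stretch with 30.3 regions per Mb.

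Deserts beside developmental regulators lay between these values. Of 30 genes 24 flanked a desert, their 32 stretches held 34.9 regions per Mb, and 19 of the 24 were above 30.0. The highest were Tbx18, a T-box factor, with 73.9 per Mb, Sox4, an SRY-related factor, with 65.4, and Shh, the hedgehog ligand, with 58.3. Zeb2 and Mef2c stood in both lists, with 42.8 and 31.5 per Mb. Regions in these stretches had a median of 48.5 CPM per kb, and 5.91% were in the top 10%. The developmental list, too, was chosen with earlier results of these data known.

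**Figure D5:**
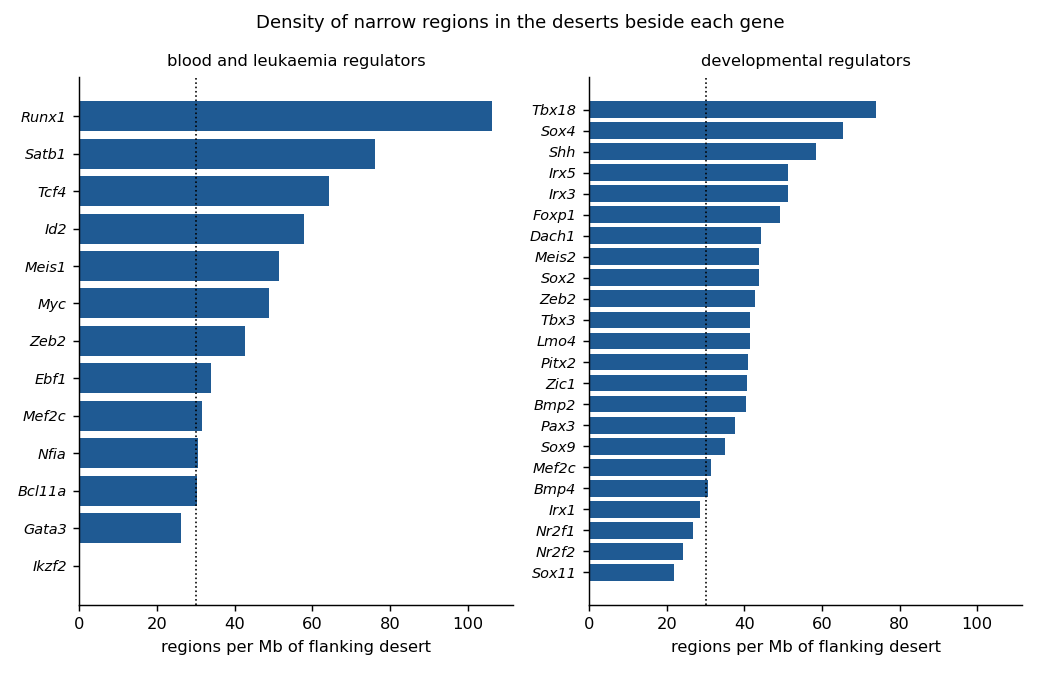
Regions per Mb in the desert stretches beside each gene of the blood and leukaemia list (left) and the developmental list (right), with the dotted line at the density of all deserts (30.0 per Mb). Runx1, Satb1 and Tcf4 lead the left panel and Tbx18, Sox4 and Shh the right one. Bcl6, with 1 region in 4.48 kb, and 1 gene of the developmental list are left out of the plot.

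Non-coding genes and pseudogenes covered 11.5% of desert sequence and held the centres of 1841 members (14.0%). Density was 36.6 regions per Mb within their spans, against 29.1 in the desert sequence outside them. Long non-coding RNA genes held 1451 members (36.0 per Mb), and pseudogenes held 117 (29.7 per Mb), close to the deserts as a whole. Signal was alike, at 49.8 ± 1.59 CPM per kb within the spans and 49.9 ± 2.00 outside them (SD, n = 3). Neighbouring members of a stretch lay a median of 19174 bp apart, and 3.94% of neighbours lay within 1 kb.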

How the data were processed

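For each of the 6 IKZF2 samples the authors deposited a table with a raw read count per region, not normalized, over the same regions in every sample. The submitters' processing notes name the build mm10 and the tools Bowtie2 2.3.3.1 and MACS2. How peaks were called is not given in the sources used here. Among desert regions with at least 10 reads in a sample, 59.3 to 64.9% of the read numbers were even for technical replicate 2 and 81.8 to 88.7% for technical replicate 1, so reads are not independent. Totals are reads within regions and not sequencing depth.

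Deserts were cut from the 20661 autosomal protein-coding genes in RefSeq's GRCm38.p6 annotation, whose coordinates are those of mm10. Chromosome ends were those of the last gene or region. Technical replicates were summed per library, and means and SDs are over 3 libraries. Counts were tested with edgeR 4.0.16 in R 4.3.3 (filterByExpr, TMM, glmQLFit, glmQLFTest), with DESeq2 1.42.0 as an alternative. SEs of log2 folds are the fold over the root of F. The library block follows the labels. For a check of the labels, log2 CPM was centred on the mean of each technical replicate group. These deviations correlated at 0.15 to 0.21 between technical replicates of a library and at -0.12 to -0.05 between those of different libraries. Centring itself makes the values between libraries negative where those within a library are positive. Over desert regions chi-square over degrees of freedom came to 2.20 to 2.40 between technical replicates of a library. Between libraries, in technical replicate 2 only, it was 3.45 to 3.54. The rest was run in Python 3.11.15 (pandas 2.3.3, numpy 2.4.6, matplotlib 3.10.9, scipy 1.17.1). Scripts were tested on simulated data.

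Named were the 10 highest members, all called members, up to 10 in the top 10% in all 3 libraries, those at the limits, the farthest, the 3 longest, densest and sparsest stretches of 1 Mb or more, and the 3 highest and the lowest gene of each list. Other genes and stretches were named after their values were seen. Not all regions and genes that this rule names are reported here. The members and both gene lists were chosen with earlier results of these data known.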

Additional observations from a re-analysis of the deposited data

Results flagged for a closer look

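The rule left out several parts of desert sequence that hold regions. Chromosome X deserts held 81 narrow regions in 34.9 Mb (2.32 per Mb), far below the 30.0 per Mb of the autosomal deserts, at 48.8 ± 4.52 CPM per kb (SD, n = 3). Deserts from 5 to 60 Mb of chromosome 4 held 1884 regions in 17.3 Mb (108.7 per Mb), above both the deserts and the 66.4 per Mb of the rest, at 52.6 ± 2.40 CPM per kb. Deserts from 3 to 5 Mb of the autosomes held 194 regions (44.4 per Mb) at 53.0 ± 1.77 CPM per kb. Desert regions wider than 300 bp numbered 34 (0.0777 per Mb), against 1786 (0.954 per Mb) in the rest, and averaged 41.4 ± 2.09 CPM per kb, against 54.8 ± 4.58. In the first 3 parts the signal per region was near that of the members while the number per Mb was not. Signal per narrow region was also alike at every distance from genes, and whether the choice of regions fixed it was not tested.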

How the results depend on the processing

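The ratio of desert to rest density (0.452) stayed below 1: it was 0.520 at a limit of 100 kb, 0.368 at 500 kb, 0.404 with genes of every kind as limits, 0.470 at 200 bp or narrower and 0.439 with all autosomal sequence. The log2 ratio of read density kept its sign under all 13 alternatives (-1.60 to -1.09), all drawn from the region set that the libraries share. The signal difference reversed in technical replicate 1 alone (0.0169). The desert share in the top 10% (5.72%) was 6.25% at 100 kb, 4.77% with all genes, 6.20% at 200 bp or narrower, 6.21% with all autosomal sequence, 9.78% in technical replicate 1 alone and 3.96% by CPM not divided by width, and ran from 6.58 to 7.86% without 1 library. The share in all 3 libraries (0.130%) was 0.221% in technical replicate 1 alone and 0.0610% without the top 0.1% of regions. Over 2 libraries, which is an easier rule, it was 0.282 to 0.312%. The difference in read share kept its sign under all alternatives. It was -0.04 percentage points with all genes as limits, where the set is smaller and the size in points is not directly comparable. Without the replicate block that pairs the technical replicates the exact p was 0.1, the smallest that 3 against 3 allows, and edgeR again called 8 desert regions, with 50 calls over all regions in place of 71. Leaving out 1 library gave 0 to 5 calls between technical replicates and 0 to 1 between libraries, and 0 between libraries without the technical replicate term. Of 71 recomputed log2 folds of called regions none changed sign and 19 lost the call. Those between libraries are the highest library over the lowest and could not change sign. Filtering by technical replicate group, added after seeing the data, gave 10 desert calls. Depth limits single regions: a member had a median of 1 to 2 reads in technical replicate 1.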
